A study of Mus musculus with 5 samples.

Results

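The Mdc1, Dhx16 and Flot1 block is an 85 kb stretch of mouse chromosome 17 that lay well above the array median on every array of a tiling study in embryo fibroblasts. It is covered by 443 probes, at file positions 34330000 to 34414999, of 387986 probes on the chromosome. The members were chosen by their own level, log2(cDNA/input), as the longest unbroken run of signal in all groups, so their levels are given below as a description, without a test. No source used here names the genome build of the file positions. The probes were therefore placed on the NCBIM37 mouse genome from the genomic DNA channel and the repeat content alone, with no cDNA value. All 443 probes fell in 1 interval, chr17:35957181-36040008, which spans 82828 bases.

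The 5 arrays came from 2 lines of spontaneously immortalised fibroblasts, derived from FVBN embryos at 12.5 days after conception. MEFB cells have the genotype +/Thp and gave 1 array of polyA RNA. MEFF cells have the genotype Thp/+ and gave 2 arrays of total RNA and 2 of polyA RNA. The same deletion, Thp, is thus present in both lines, each time on a single homologue, and the parent it came from differs. Per the labels it spans 8.6 to 13.2 Mb of mm9, so the block lies outside it in both lines. On each array Cy3 carried double-stranded cDNA and Cy5 the sonicated genomic DNA of the same line, without a dye swap. The strand of an RNA is lost in such cDNA, and RNA of overlapping genes on opposite strands cannot be told apart. A level is log2(cDNA/input) of a probe after subtraction of the array median. Division by the genomic signal takes out only part of the difference in affinity between probes.

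Gene-dense stretches of this kind lie within the class I part of the major histocompatibility complex, where housekeeping genes sit between clusters of immune genes. In spliced transcripts the introns are removed and the exons joined, so polyA RNA is mostly exon sequence, whereas nuclear precursors still carry introns. On NCBIM37 the interval held 9 protein-coding genes and 2 non-coding ones. In order along the chromosome the coding genes were Ier3, Flot1, Tubb5, Mdc1, Nrm, Ppp1r18, Dhx16, 2310061I04Rik and Atat1. Ppp1r18 stands in the annotation under its older name 2310014H01Rik. The 3 candidate genes given for the block were thus found in it, with 6 further coding genes. Tubb5, 2310061I04Rik and Atat1 run on the minus strand and the other 6 genes on the plus strand, and the block ended inside Atat1.

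The exon sequences below show exons that hold at least 1 probe of the block. A probe inside an exon reads spliced and unspliced RNA alike. For 6 genes the all-coding exon with the highest mean level over the 5 arrays is shown. It was taken among exons whose flanks hold no other coding-transcript exon. In Atat1, exon 10 was the only all-coding exon with a probe. The gene 2310061I04Rik also has all-coding exons with probes and is not shown. Capitals mark the exon and lower case the 20 intron bases on either side, 5′ to 3′ along the gene, from the NCBIM37 reference. The reference strain differs from FVBN.
Tubb5 exon 2, chr17:35973553-35973701, minus strand: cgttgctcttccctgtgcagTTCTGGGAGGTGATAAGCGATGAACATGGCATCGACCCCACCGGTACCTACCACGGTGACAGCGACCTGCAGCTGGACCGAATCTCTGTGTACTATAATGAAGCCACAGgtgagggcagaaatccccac
Mdc1 exon 12, chr17:35991128-35991287, plus strand: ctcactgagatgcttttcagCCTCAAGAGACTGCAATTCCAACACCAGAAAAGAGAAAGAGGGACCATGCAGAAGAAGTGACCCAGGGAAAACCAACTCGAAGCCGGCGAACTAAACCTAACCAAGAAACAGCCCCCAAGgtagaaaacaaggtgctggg
Nrm exon 3, chr17:36001037-36001253, plus strand: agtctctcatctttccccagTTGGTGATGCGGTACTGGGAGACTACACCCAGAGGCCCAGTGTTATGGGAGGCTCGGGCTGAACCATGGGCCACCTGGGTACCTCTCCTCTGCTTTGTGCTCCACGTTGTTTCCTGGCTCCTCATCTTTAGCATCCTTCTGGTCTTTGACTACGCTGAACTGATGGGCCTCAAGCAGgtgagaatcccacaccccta
Dhx16 exon 9, chr17:36020945-36021100, plus strand: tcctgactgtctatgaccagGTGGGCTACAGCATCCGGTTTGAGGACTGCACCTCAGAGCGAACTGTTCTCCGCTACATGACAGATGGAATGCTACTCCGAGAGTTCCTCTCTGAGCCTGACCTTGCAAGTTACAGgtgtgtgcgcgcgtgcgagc
Flot1 exon 6, chr17:35961758-35961917, plus strand: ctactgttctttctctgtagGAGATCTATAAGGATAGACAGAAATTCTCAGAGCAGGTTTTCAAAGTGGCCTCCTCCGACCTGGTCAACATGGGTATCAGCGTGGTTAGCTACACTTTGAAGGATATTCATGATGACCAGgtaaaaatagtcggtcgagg
Atat1 exon 10, chr17:36038293-36038576, minus strand: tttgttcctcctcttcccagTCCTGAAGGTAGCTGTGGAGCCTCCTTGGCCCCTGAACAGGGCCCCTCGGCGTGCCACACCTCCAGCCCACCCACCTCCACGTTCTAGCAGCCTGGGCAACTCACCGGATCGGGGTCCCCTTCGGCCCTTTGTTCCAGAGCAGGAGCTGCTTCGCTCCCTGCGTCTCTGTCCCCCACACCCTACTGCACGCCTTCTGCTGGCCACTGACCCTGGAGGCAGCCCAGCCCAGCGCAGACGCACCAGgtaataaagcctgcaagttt
Each exon is preceded by the intron letters ag and followed by gt. These are the junctions at which spliced cDNA departs from genomic sequence. The Tubb5 exon read 5.35 on the MEFB array, 3.77 and 3.80 on the total RNA arrays of MEFF and 5.12 and 6.39 on the MEFF polyA arrays. The Dhx16 exon, with 2 probes, read 5.63 on the MEFB array, 3.56 and 3.68 on the total RNA arrays and 5.02 and 6.38 on the MEFF polyA arrays. The Atat1 exon was the dimmest of the 6. On every array but the second MEFF polyA array it lay below the mean of its gene. It read 2.76 on the MEFB array, -0.48 and 0.065 on the total RNA arrays and 1.04 and 2.22 on the MEFF polyA arrays. The other 5 exons rested on 1 probe each, so these are single readings of a place.

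The block averaged 1.74 on the MEFB polyA array, 0.83 and 0.84 on the total RNA arrays of MEFF and 1.47 and 2.34 on the MEFF polyA arrays. For ranks, the chromosome was cut into 928 stretches of 85 kb with at least 200 probes, counted from the start of the block. The block held rank 1 on the MEFB array, rank 5 on both total RNA arrays and rank 2 on both MEFF polyA arrays. This cut, and the choice of the block by its level, favour its ranks. The MEFF polyA arrays thus differed from each other by more than the MEFB array differed from their mean. Group means were 1.74 for MEFB polyA (n = 1), 0.839 ± 0.0066 for MEFF total (SD, n = 2) and 1.90 ± 0.615 for MEFF polyA (SD, n = 2). Probes above the 90th percentile of their array numbered 252 on the MEFB array, 202 and 200 on the total RNA arrays and 281 and 307 on the MEFF polyA arrays. These are 56.9%, 45.6%, 45.1%, 63.4% and 69.3% of the 443, against 10% of all probes by construction. The genomic channel of the block lay 0.36 above its own array median on the MEFB array, 0.16 and 0.23 on the total RNA arrays and 0.14 and 0.056 on the MEFF polyA arrays.

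The arrays also differed over the whole chromosome. The cDNA channel had a median intensity of 747.22 for MEFB polyA, of 2560.56 and 2542.22 for the pair of MEFF total arrays, and of 1568.44 and 568.78 for the pair of MEFF polyA arrays. The ratio of its 99th percentile to that median was 20.7 for MEFB polyA, 5.42 and 5.33 for MEFF total, and 9.17 and 22.4 for MEFF polyA. Total RNA and polyA RNA were run on different slide series, so RNA type and slide series cannot be told apart. Both lines' polyA arrays share 1 series. As a check of cell type on this chromosome, the fibroblast gene Ltbp1 had percentiles of 89.6 or more among 782 genes on all 5 arrays. Thbs2 and Cyp1b1, also fibroblast genes, had percentiles of 99.7 and 99.4 in MEFB, and between 48.0 and 61.8 on the 4 MEFF arrays. The immune genes Tnf, Lta, Ltb and Aif1 had percentiles between 6.52 and 37.9 on all arrays, and Lst1 had too few probes.

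**Figure D1:**
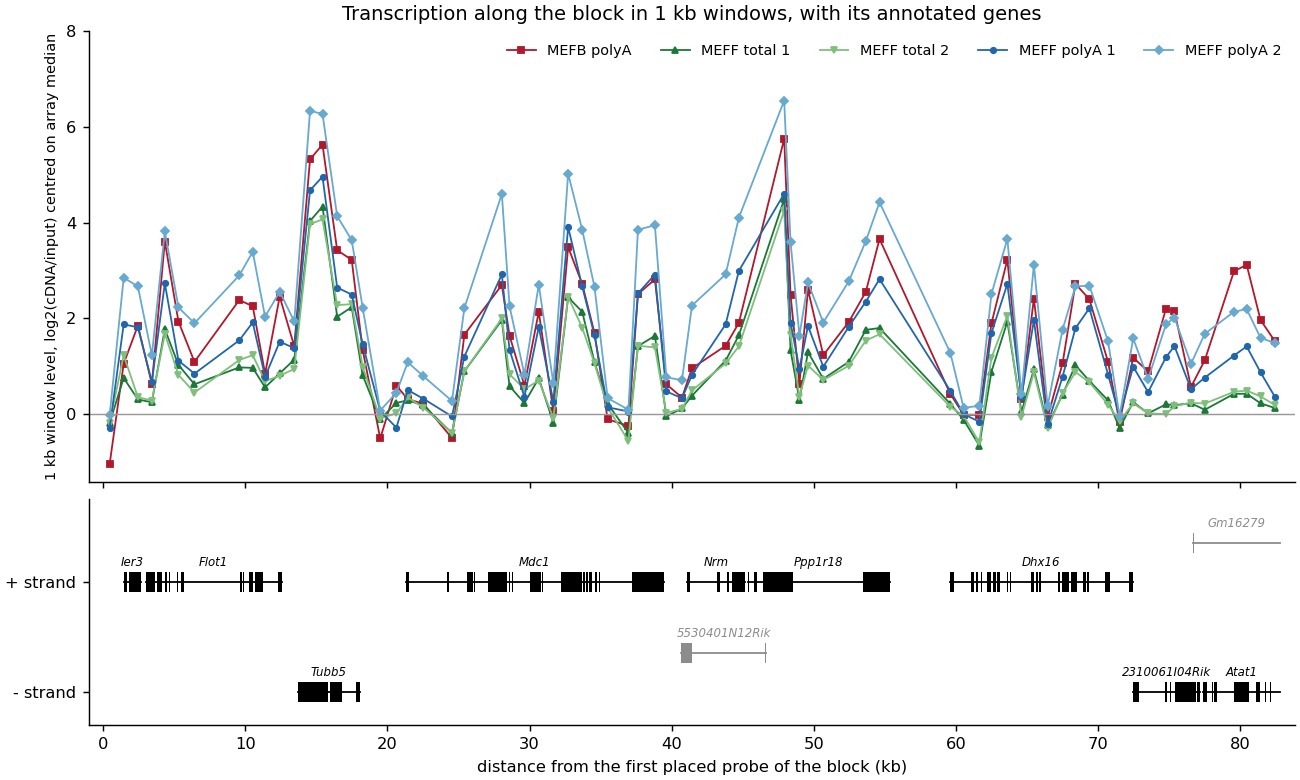
Level in 1 kb windows with at least 3 probes (y axis, log2 of cDNA over input, centred on the array median) against distance from the first placed probe in kb (x axis), with 1 line per array. The lower panel maps exons (bars) of coding genes (black) and non-coding genes (grey) by strand. The peaks on all 5 arrays stand over Tubb5 and over the exons of Ppp1r18 and Mdc1. The windows wholly between Tubb5 and Mdc1 lie between -0.51 and 0.60.

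Signal was spread over nearly the whole block. Of its 17 windows of 5 kb, 15 were above the 90th percentile of all windows on the MEFB array, 13 and 14 on the total RNA arrays and 16 on each MEFF polyA array, where 10% of windows are above it by construction. The window on the proximal side, starting at 34325000, read -0.57 on the MEFB array, -0.23 and -0.043 on the total RNA arrays and 0.037 and 0.061 on the MEFF polyA arrays. The first window inside read 1.31 on the MEFB array, 0.57 and 0.70 on the total RNA arrays and 1.48 and 2.27 on the MEFF polyA arrays. The level thus rose at that edge on every array. The block was chosen as a run of signal, which favours such a step, so no result is read from it. At the distal end the last window inside read 2.47 on the MEFB array, 0.35 and 0.40 on the total RNA arrays and 1.06 and 1.92 on the MEFF polyA arrays. The window just beyond it, at 34415000, still read 1.63 on the MEFB array, 0.38 and 0.34 on the total RNA arrays and 0.71 and 1.19 on the MEFF polyA arrays. Signal thus ran on past the end of the block, which falls within Atat1.

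At 1 kb the block broke up into peaks and gaps. Of 71 windows, 50 were above the 90th percentile on the MEFB array, 37 and 41 on the total RNA arrays and 55 on each MEFF polyA array. The brightest, by the mean over the arrays, lay in the long second exon of Ppp1r18, the gene of phostensin, which brings protein phosphatase 1 to actin filaments. It rested on 3 probes. This window read 5.75 on the MEFB array, 4.49 and 4.25 on the total RNA arrays and 4.61 and 6.55 on the MEFF polyA arrays. The next brightest windows both lay in Tubb5. They read 5.63 and 5.32 on the MEFB array, 4.34 and 4.04 on the first total RNA array, 4.07 and 3.97 on the second, 4.96 and 4.68 on the first MEFF polyA array and 6.27 and 6.34 on the second. The 3 dimmest windows were the one before Ier3, one at the 5′ end of Dhx16 and one at the 5′ end of Mdc1. None of these read above 0.28 on any array.

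The signal followed the exons. Of the 443 probes, 191 lay in an exon (43.1%, against 4.43% of placed probes in the rest of the chromosome), 188 in an intron and 44 between genes. Exonic probes averaged 2.89 on the MEFB array, 1.48 and 1.53 on the total RNA arrays and 2.52 and 3.70 on the MEFF polyA arrays. Intronic probes averaged 0.97 on the MEFB array, 0.35 and 0.32 on the total RNA arrays and 0.74 and 1.42 on the MEFF polyA arrays. Probes between genes read 0.091 on the MEFB array, 0.16 and 0.11 on the total RNA arrays and 0.18 and 0.45 on the MEFF polyA arrays. The 3 classes kept this order on all 5 arrays. In the rest of the chromosome exonic probes averaged 1.72 on the MEFB array, 0.70 and 0.71 on the total RNA arrays and 1.27 and 1.94 on the MEFF polyA arrays, and intronic probes between 0.020 and 0.12. Base composition differed too, at a mean GC content of 52.0% in the block and 44.8% in the rest of the chromosome, and its part in the levels was not tested.

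**Figure D2:**
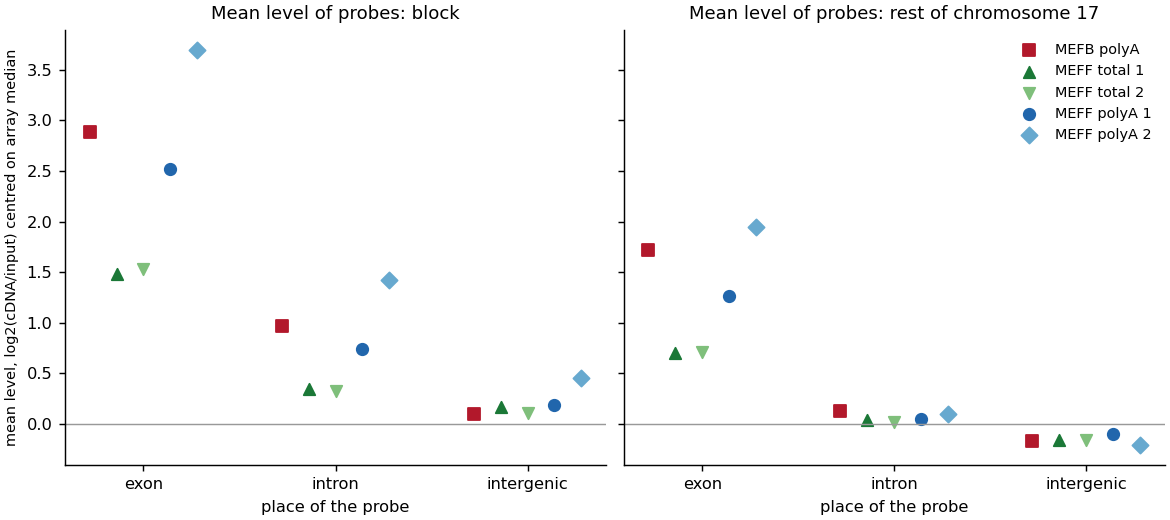
Mean level (y axis, log2 of cDNA over input, centred on the array median) of exonic, intronic and intergenic probes (x axis) in the block and in the rest of chromosome 17, with 1 point per array. Exons stand above introns and introns above intergenic probes on all 5 arrays in the block, where the exon means run from 1.48 to 3.70.

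Exons exceeded introns by 1.92 on the MEFB array, 1.13 and 1.20 on the total RNA arrays and 1.78 and 2.28 on the MEFF polyA arrays. With 2 arrays against 2, an exact test of this gap between total and polyA RNA cannot go below p = 0.333, and none was made. All 8 coding genes with intron probes had exons above introns on all 5 arrays, as did 70.4% of 696 genes of the chromosome with at least 4 probes of each kind. The gap was widest in Tubb5, at 3.19 on the MEFB array, 2.15 and 2.02 on the total RNA arrays and 3.06 and 3.34 on the MEFF polyA arrays. Dhx16, which encodes an RNA helicase of the spliceosome, came next in polyA RNA, with 2.57 on the MEFB array, 1.38 and 1.52 on the total RNA arrays and 2.18 and 3.01 on the MEFF polyA arrays. Its introns stayed low, at 0.37 on the MEFB array, -0.045 and -0.076 on the total RNA arrays and 0.27 and 0.62 on the MEFF polyA arrays. By contrast the introns of Ppp1r18 read 1.87 on the MEFB array, 1.00 and 0.85 on the total RNA arrays and 1.52 and 2.44 on the MEFF polyA arrays. Those of Atat1 read 1.62 on the MEFB array, 0.31 and 0.34 on the total RNA arrays and 0.67 and 1.38 on the MEFF polyA arrays. The introns of Ppp1r18 and Atat1 thus read above those of Dhx16 on every array. The MEFF polyA arrays themselves lay far apart, at 1.52 and 2.44 for Ppp1r18, and the spread between probes of an intron is not given here. Placed positions step backward in the Ppp1r18 intron after its second exon. Near that step, the 7 probes of the 1 kb window at 34379000, all counted as exonic, were placed between 36005413 and 36005670. The part of placing in the exon and intron levels of Ppp1r18 was not tested.

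Among the genes of the cytoskeleton, Tubb5, which encodes a beta-tubulin of microtubules, was the brightest of the block on every array. Its 20 exonic probes averaged 4.92 on the MEFB array, 3.45 and 3.41 on the total RNA arrays and 4.30 and 5.66 on the MEFF polyA arrays. Among the 782 genes with at least 4 exonic probes it held rank 9 on the MEFB array, rank 2 on both total RNA arrays and rank 3 on both MEFF polyA arrays. One of the 20 probes shares a 25-base word with sequence elsewhere in the genome, as does 1 of the 27 exonic probes of Ppp1r18. Ppp1r18 averaged 3.20 on the MEFB array, 1.80 and 1.81 on the total RNA arrays and 2.66 and 4.10 on the MEFF polyA arrays. Flot1, the gene of flotillin-1, a scaffold of membrane microdomains, averaged 2.58 on the MEFB array, 1.11 and 1.22 on the total RNA arrays and 1.99 and 3.15 on the MEFF polyA arrays. Atat1, which encodes the alpha-tubulin acetyltransferase, averaged 2.77 on the MEFB array, 0.47 and 0.43 on the total RNA arrays and 1.27 and 2.11 on the MEFF polyA arrays over the whole gene. By group mean it was thus next to the dimmest gene of the block in MEFF polyA RNA, and next to Dhx16 in MEFB.

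Of the genes acting in the nucleus, Mdc1 encodes a scaffold that gathers repair factors at DNA breaks. Its 42 exonic probes averaged 2.65 on the MEFB array, 1.74 and 1.70 on the total RNA arrays and 2.69 and 3.96 on the MEFF polyA arrays. Nrm, the gene of nurim, a protein of the inner nuclear membrane, averaged 2.11 on the MEFB array, 1.42 and 1.45 on the total RNA arrays and 2.86 and 3.89 on the MEFF polyA arrays. Dhx16 averaged 2.93 on the MEFB array, 1.33 and 1.45 on the total RNA arrays and 2.45 and 3.63 on the MEFF polyA arrays. These 3 genes lay close together within MEFF polyA RNA, with differences smaller than the gap between its 2 arrays. Ier3, an immediate early gene induced by growth factors and stress, averaged 2.41 on the MEFB array, 0.74 and 1.07 on the total RNA arrays and 2.60 and 4.02 on the MEFF polyA arrays. The dimmest coding gene by the mean over the 5 arrays was 2310061I04Rik, at 1.65 on the MEFB array, 0.40 and 0.44 on the total RNA arrays and 1.32 and 1.98 on the MEFF polyA arrays. Even so, its percentile among genes was 49.0 or more on all 5 arrays. Genes above the 90th percentile numbered 1 of 9 on the MEFB array, 3 and 2 on the total RNA arrays and 2 and 3 on the MEFF polyA arrays, where 10.1% of all genes are above it.

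**Figure D3:**
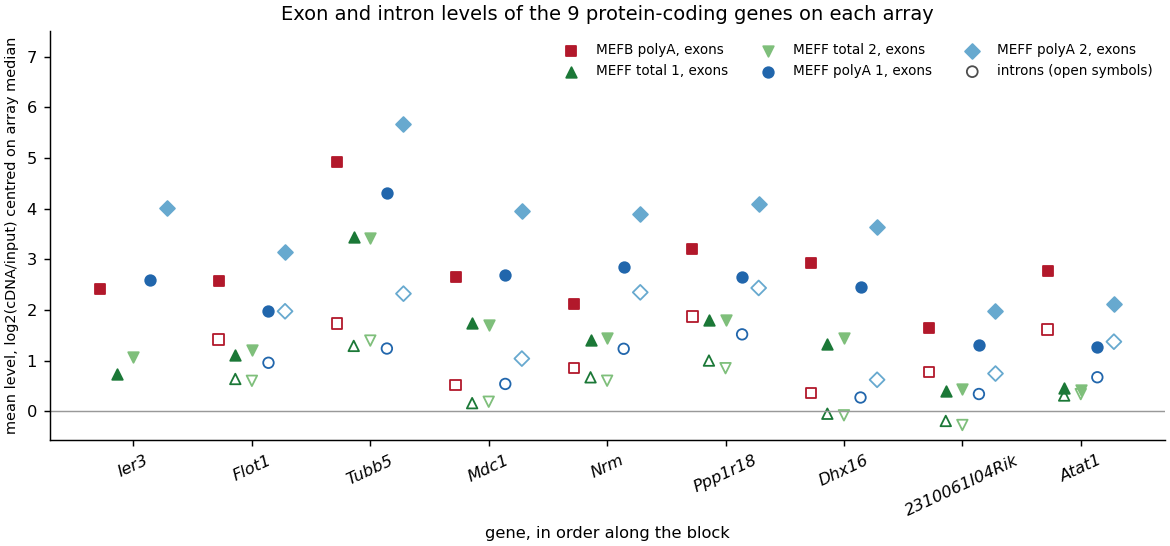
Mean level of exonic (filled) and intronic (open) probes (y axis, log2 of cDNA over input, centred on the array median) of the 9 protein-coding genes in order along the block (x axis), with 1 symbol per array. Tubb5 has the highest exon level on all 5 arrays, from 3.41 to 5.66, and Ier3 has no intron probe.

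The spaces between genes were dim where the gap was wide. The 15 probes in the 3208 bases between Tubb5 and Mdc1 averaged 0.073 on the MEFB array, 0.075 and 0.071 on the total RNA arrays and 0.050 and 0.38 on the MEFF polyA arrays. The 1134 bases between Flot1 and Tubb5 were an exception. There 6 probes averaged 1.23 on the MEFB array, 0.71 and 0.52 on the total RNA arrays and 0.86 and 1.62 on the MEFF polyA arrays. Flot1 and Tubb5 converge, so both genes end at that gap. Dhx16 and 2310061I04Rik also converge, with 6 bases between their annotated ends and no probe in the gap. Gm16279, an annotated long non-coding RNA on the plus strand, starts inside the block, but its exons other than the first lie beyond the block's end, so no level is given for it.

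Exons of a gene did not read alike. In 7 genes the first exon of the transcript with the longest coding sequence had at least 2 probes and the other exons at least 4. In 6 of the 7 the first exon read below the others on all 5 arrays, where 57% of 309 such genes of the chromosome did. Flot1 showed the widest difference on 4 of the 5 arrays, and Mdc1 on the first MEFF polyA array. In Flot1 the first exon read -0.75 on the MEFB array, -0.60 and -0.47 on the total RNA arrays and -0.13 and -0.046 on the MEFF polyA arrays. Its other exons averaged 3.89 on the MEFB array, 1.71 and 1.88 on the total RNA arrays and 2.87 and 4.42 on the MEFF polyA arrays. The mean of the 3 first-exon probes of Flot1 thus stayed below the array median throughout. In Mdc1 the first exon read -0.29 on the MEFB array, 0.18 and 0.23 on the total RNA arrays and -0.25 and 0.80 on the MEFF polyA arrays, and its other exons 2.80 on the MEFB array, 1.82 and 1.77 on the total RNA arrays and 2.84 and 4.11 on the MEFF polyA arrays. Ier3 was the exception, with a first exon below the second only on the MEFB array. First exons were richer in GC, at a mean of 67.4% against 54.0% in the other exons of these 7 genes, and 63.7% against 52.2% in the 302 genes of the rest of the chromosome. The part of base composition, and of the way the cDNA was primed, in this difference was not tested.

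**Figure D4:**
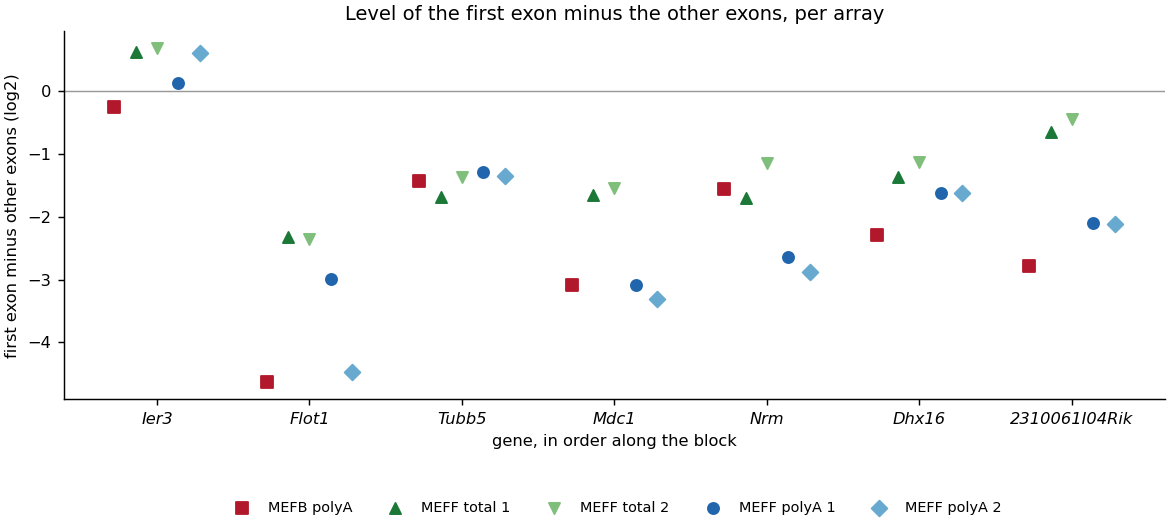
Level of the first exon minus the mean level of the other exons (y axis, log2 units) in the 7 genes of the block with enough probes (x axis), with 1 symbol per array. Points of 6 genes lie below 0 on all 5 arrays, and those of Ier3 lie on both sides of 0.

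Within Mdc1, exons 10, 16 and 5 held the most probes. Exon 5, with 8 probes, read 2.84 on the MEFB array, 1.80 and 1.89 on the total RNA arrays and 2.89 and 4.65 on the MEFF polyA arrays. Exon 10, with 11 probes, read 3.91 on the MEFB array, 2.79 and 2.68 on the total RNA arrays and 4.03 and 5.21 on the MEFF polyA arrays. The last exon, number 16, with 10 probes, which holds the 3′ untranslated end, was lower than exon 10 on every array, at 2.66 on the MEFB array, 1.40 and 1.34 on the total RNA arrays and 2.73 and 3.91 on the MEFF polyA arrays. In Dhx16 the first 8 exons with probes averaged 3.35 on the MEFB array, 1.66 and 1.91 on the total RNA arrays and 2.92 and 4.08 on the MEFF polyA arrays, above its later exons on every array. Those later exons averaged 2.55 on the MEFB array, 1.03 and 1.01 on the total RNA arrays and 2.02 and 3.21 on the MEFF polyA arrays. Among them, the 4 probes of exon 13 read -0.44 on the MEFB array and -0.073 and -0.070 on the total RNA arrays. On the MEFF polyA arrays they read -0.097 and 0.29. The order of earlier and later exons depends on these 4 probes on some arrays, so no trend along the gene is read from it. Placing sets a limit here. The offset between file and NCBIM37 positions changes 8 times in the block, and placed positions step backward 6 times. Within 500 bases of a change lie 39 probes, among them the 4 probes of Dhx16 exon 13 and those of Mdc1 exon 3.

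MEFB and MEFF polyA RNA were compared with limma over all 15383 windows. The spread came from the MEFF total pair and the MEFF polyA pair, since the single MEFB array adds none. At the level of the block the SD was 0.0066 in the total pair and 0.615 in the polyA pair. Pooling them thus gives a smaller spread than that of the polyA pair compared here. With median centring alone, 0 of the 17 windows of the block passed an adjusted p of 0.05, as did 0.0065% of all windows. At an unadjusted p under 0.05 there was 1 window of the 17, against 2415 of all windows. That window, the last of the block, lies in Atat1. It read 2.47 on the MEFB array, and 1.06 and 1.92 on the MEFF polyA arrays, a difference of 0.98 with an adjusted p of 0.30 by limma. The neighbouring windows at 34405000 and 34400000 differed by 0.12 and 0.051. The lowest differences, at 34375000, 34370000 and 34330000, were -0.73, -0.61 and -0.57, over the end of Nrm with the start of Ppp1r18, the end of Mdc1 with Nrm, and Ier3 with the start of Flot1. After normexp background correction these last 3 windows passed, with limma adjusted p of 0.0092, 0.041 and 0.026, where 1.21% of all windows passed as lower. After quantile normalization 7 of the 17 passed, 6 of them lower in MEFB and 1 higher, where 3.11% of all windows passed as lower and 3.69% as higher. After normexp and then quantile normalization 3 of the 17 passed, all as lower, where 2.49% of all windows did. The direction of most windows turned on which MEFF polyA array was used. The window at 34335000, for example, read 1.74 on the MEFB array and 1.13 and 2.26 on the MEFF polyA arrays.

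By gene, Nrm stood lowest in MEFB relative to MEFF. Its exons read 2.11 on the MEFB array, and 2.86 and 3.89 on the MEFF polyA arrays, so that MEFB lay below both. The difference was -1.26 (SE 0.51, limma adjusted p = 0.738) with median centring, where 0 of the 9 genes and 0.128% of all 782 genes passed. An unadjusted p under 0.05 in limma was held by 0 of the 9 and by 60 of all 782 genes. With only the compared groups in the fit, the SE of the Nrm difference was 0.70. The Nrm difference also changed with the scaling. It was -2.08 after normexp (SE 0.46, limma adjusted p = 0.0023, with 4.35% of genes passing as lower) and -1.33 after quantile normalization (SE 0.13, limma adjusted p = 5.3e-05, with 12.4% of genes passing as lower). On ranks within an array, Nrm had a percentile of 58.8 among genes in MEFB, and of 90.2 and 87.6 in MEFF polyA RNA. Its introns showed the same order, at 0.86 on the MEFB array, and 1.24 and 2.35 on the MEFF polyA arrays. The antisense gene 5530401N12Rik overlaps Nrm, and its 4 probes outside coding exons read 0.30 on the MEFB array, and 0.34 and 0.76 on the MEFF polyA arrays. A fall in RNA per cell and a smaller share of cells with the RNA cannot be told apart in these bulk extracts.

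Atat1 went the other way. Its exons read 2.77 on the MEFB array, and 1.27 and 2.11 on the MEFF polyA arrays, so that MEFB lay above both. The difference was 1.08 (SE 0.43, limma adjusted p = 0.738) with median centring, 0.86 after normexp (limma adjusted p = 0.354) and 0.63 after quantile normalization (limma adjusted p = 0.0094, with 8.06% of genes passing as higher). Atat1 introns read 1.62 on the MEFB array, and 0.67 and 1.38 on the MEFF polyA arrays. Ier3 read 2.41 on the MEFB array, and 2.60 and 4.02 on the MEFF polyA arrays. It differed by -0.89 (limma adjusted p = 0.869) with median centring, and by -1.01 (limma adjusted p = 0.0072) after quantile normalization. Mdc1 and Tubb5 also passed as lower after quantile normalization, by -0.81 and -0.45 with limma adjusted p of 0.0032 and 0.042. Flot1, Ppp1r18, Dhx16 and 2310061I04Rik passed under none of these 3 settings, with differences between -0.18 and 0.012 under median centring. The median difference of all 782 genes was itself -0.050 with median centring, -0.28 after normexp and -0.14 after quantile normalization.

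**Figure D5:**
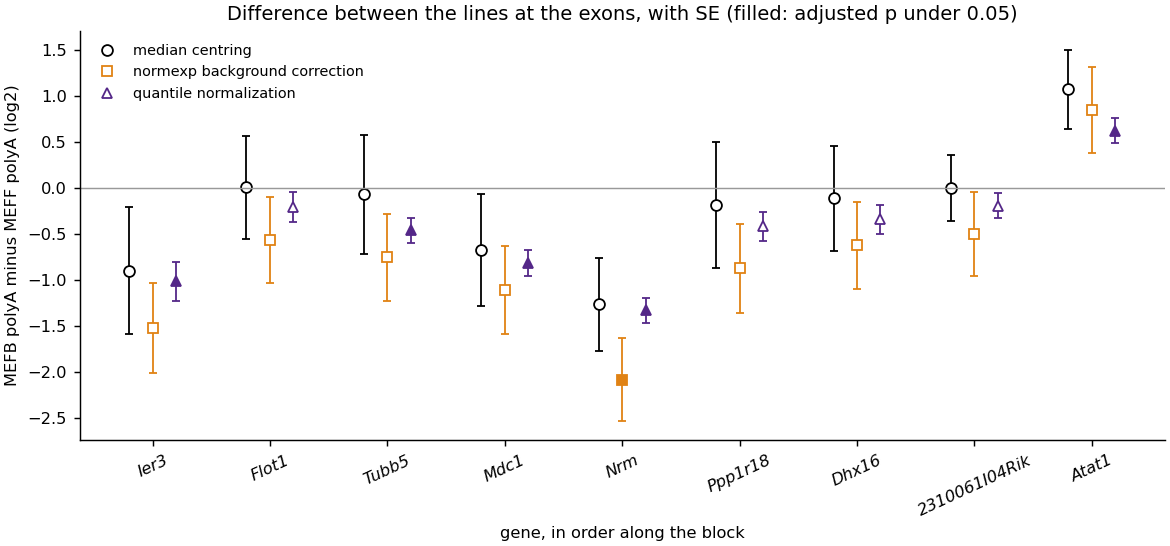
Difference in exon level, MEFB polyA minus MEFF polyA (y axis, log2 units), for the 9 genes (x axis) under 3 settings, with bars for the standard error of limma. Filled symbols mark an adjusted p under 0.05. Nrm lies lowest and Atat1 highest under each setting, and no gene passes with median centring.

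The contrast of MEFF total with MEFF polyA RNA uses the same MEFF polyA arrays. The members were chosen for a high level in all groups, and the total RNA arrays have the narrower range given above. The counts of this contrast are therefore printed as a description, and nothing about the block is read from them. With median centring the 9 genes differed by -1.23 to -2.40 at their exons, with a median of -1.57, against -0.91 over all 782 genes. Of the 9 genes 0 passed, as did 0% of all genes, while 8 of the 9 and 346 of all genes had an unadjusted p under 0.05 in limma. After normexp 9 of 9 passed as lower in total RNA, where 53.1% of all genes did. After quantile normalization 8 of 9 passed as lower, where 50% of all genes did. The exception was Tubb5, at -0.026 (limma adjusted p = 0.875) after quantile normalization. It read 3.45 and 3.41 on the total RNA arrays, and 4.30 and 5.66 on the MEFF polyA arrays. By windows, 0 of 17 passed with median centring, as did 0% of all windows, with 15 of the 17 and 1189 of all windows at an unadjusted p under 0.05 in limma. After normexp 14 of the 17 passed as lower, against 2.68% of all windows, and after quantile normalization 11 of the 17 did, against 3.51%. After both steps 8 of the 17 passed as lower, against 2.5% of all windows. With median centring and the first MEFF polyA array left out, the 9 genes differed by -1.56 to -3.11. With the second left out they differed by -0.82 to -1.69.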

How the data were processed

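Per the file headers, NimbleScan 2.2.34 extracted the deposited intensities, 1 per probe and channel. Judging from the values, these are not normalized. Members, gene lists and settings were chosen with earlier results of these data known. Whether replicate arrays stem from separate cultures is not said in the labels, and the spread behind each p-value is that of these arrays and may be technical. Replicate numbers follow accession order.

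For each probe the log2 of cDNA over input intensity was taken, less the median of its array. Of 388000 probes, 14 lie on other chromosomes and were left out. Probes were averaged in 5 kb windows (8 probes or more) and in 1 kb windows (3 or more). Positions were moved to NCBIM37 by fitting the input signal to base composition and by avoidance of 14-base words that repeat on the chromosome, which placed 95.1% of probes. As a check that uses the cDNA, exons minus all other placed probes reached 1.76 on the MEFB array at the placed positions, and 1.47 and 1.50 with all positions moved by 50 bases either way. Exons come from GENCODE, and symbols were updated through RefSeq. Tests between groups used lmFit and eBayes of limma 3.58.1 (R 4.3.3), with 3 group means and 2 residual degrees of freedom, and the single MEFB array is taken to vary as the MEFF arrays do. Benjamini-Hochberg adjustment ran over all windows, or over the 782 genes with at least 4 exonic probes. The fit over genes was added after seeing the data.

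The genes named are all protein-coding genes that overlap the placed block, the 3 brightest and 3 dimmest windows of 1 kb, and the 3 highest and 3 lowest windows of 5 kb by MEFB minus MEFF polyA. The first exons were compared after seeing the data. Alternatives were normexp with offset 50, quantile normalization, loess with span 0.3, the median of probes, the cDNA channel alone, dim input probes left out, 1 kb windows, each array left out, a prior with a trend, and a fit to only the groups compared. Spots at the scanner limit of 65535, at most 6 per array in the block, were kept. The number of arrays limits the precision.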

Additional observations from a re-analysis of the deposited data

How the results depend on the processing

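No paired analysis was possible because the labels number no replicates. With 1 MEFB array and 2 arrays in each MEFF group, calls turned on scaling. For MEFB minus MEFF polyA, the windows called in the block numbered 0 with median centring, 3 after normexp, 7 after quantile normalization and 3 after both, and with an array left out between 0 and 17 with median centring and from 2 to 14 following normexp. Without MEFF polyA replicate 1 they numbered 17, with 1 higher in MEFB, and without MEFF polyA replicate 2 they numbered 11, with 10 higher, because the spread then comes from the total RNA pair alone. For total minus polyA RNA they numbered 14 after normexp, 11 after quantile normalization, 8 after both, and with an array left out between 0 and 17 with median centring and between 5 and 17 after normexp (17 and 10 without each MEFF polyA replicate in turn). The other alternatives kept 0 in both. The share of all windows called with an array left out is not given here, so nothing about the block is read from those counts.

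The block level after normexp was 2.44 for MEFB polyA, 1.93 for MEFF total and 3.03 for MEFF polyA. For MEFF total it was also 0.49 with the median of probes, 1.18 after quantile normalization, 1.05 after loess, 1.08 with cDNA alone and 0.73 without dim input probes. Exons minus introns were 1.53 for MEFB after quantile normalization. For total RNA they were 0.98 with the median of probes, 1.80 after normexp, 1.11 with cDNA alone, 1.59 after quantile normalization and 1.27 without probes near a change of offset. For MEFF polyA they were 2.50 after normexp. Exons stayed above introns under each of these.

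Of the 9 genes, Nrm, Ier3 and Mdc1 stayed lower and Atat1 higher in MEFB under all 18 settings run. Nrm had differences from -2.19 to -0.74. The settings reuse the same arrays and several give the same difference, so they are not separate tests. Differences near 0 changed sign. Flot1 was -0.56 after normexp, -0.20 after quantile normalization, -0.25 without dim input probes and -0.41 after both, and with an array left out ranged from -0.57 to 0.59, or from -0.93 to -0.18 after normexp. For 2310061I04Rik the values were -0.49 after normexp, -0.19 after quantile normalization and -0.40 after both, and with an array left out from -0.33 to 0.33, or from -0.69 to -0.29 after normexp. With cDNA alone Tubb5 was 0.35, Ppp1r18 0.28 and Dhx16 0.057, and Dhx16 was 0.17 after loess. With an array left out Tubb5 ranged from -0.74 to 0.62, Ppp1r18 from -0.90 to 0.54 and Dhx16 from -0.70 to 0.48. Total minus polyA turned to 0.39 after loess and 0.097 after normexp and quantile normalization for Tubb5. The cause of these turns was not tested.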
